A study of Mus musculus with 18 samples.

Results

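Adult mouse testis was compared with P21 testis across 37820 probes for long noncoding RNAs and mRNAs. The comparison used the 6 arrays titled Ad-1 to Ad-3 and P21-1 to P21-3, of 18 arrays in the series, and all 37820 probes of the deposited table. The adult group was whole testis of adult mice, for which the labels give no age in days, and the other group was whole testis taken 21 days after birth. The remaining 12 arrays were whole testis at E12.5, E15.5, P7 and P14, 3 per stage. No strain, genotype or treatment is named, testes of all stages were frozen after dissection, and no label says whether replicates were separate or pooled animals. P-values therefore cover only how much these samples varied among themselves, possibly for technical reasons. Probe identifiers carried no gene name and 0 of 37820 matched the gene tables used here, so probes are called by identifier, no known function is given for them, and the tissue label could not be checked against marker genes.

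As background, P21 falls near the point in the first wave of mouse spermatogenesis at which round spermatids are present and elongation of spermatids is about to begin. During the remaining phase, spermiogenesis, the spermatid nucleus condenses as histones give way to transition proteins and protamines, the acrosome and flagellum are built, and most cytoplasm is shed. Many transcripts of that phase are made in spermatids and stored for later translation. In the adult all germ cell stages are present together, and somatic cells such as Sertoli and Leydig cells form a smaller share of the tissue. In whole tissue, fewer cells of a type and less RNA per cell cannot be told apart.

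Values are the authors' signals, taken to be on a log2 scale, and a change is the adult mean minus the P21 mean on that scale. Each array gave 1 value per probe, and the number of arrays limits the precision. A probe was called at an adjusted p below 0.05 (limma over all 18 arrays, Benjamini-Hochberg over all probes) with a change of at least 2-fold. The spread of each probe was estimated over all 6 stages, which were not equally tight. P14 arrays correlated with each other at 0.993 to 0.995, P21 arrays at 0.924 to 0.982 and adult arrays at 0.947 to 0.988. The p-values therefore draw on tighter stages, and fitting only the 6 adult and P21 arrays gave 7588 calls.

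P21 replicate 1 and adult replicate 1 stood apart from their stages, and results are given with and without this pair. P21 replicate 1 correlated with the other P21 arrays at 0.924 and 0.948 across probes, whereas those correlated with each other at 0.982. Its correlation with the P14 arrays was nearly as high, from 0.913 to 0.919, and its correlation with the adult arrays, from 0.833 to 0.858, was lower than that of P21 replicates 2 and 3 (0.883 to 0.899). P14 differed at least 2-fold from P21 replicate 3 at 12365 probes, and P21 replicate 1 was shifted from P21 replicate 2 in the direction of P14 at 75.1% of them. With replicates 2 and 3 exchanged the share was 85.9% of 12201 probes. The same count toward the adult gave 48.7% and 60.7%. Adult replicate 1 correlated at 0.947 and 0.956 with the other adult arrays, which correlated with each other at 0.988. At probes where P21 differed at least 2-fold from an adult array, adult replicate 1 lay toward P21 at 65.5% and 64.2%. Probes are not independent replicates in these values, and what set the pair apart was not tested.

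**Figure D1:**
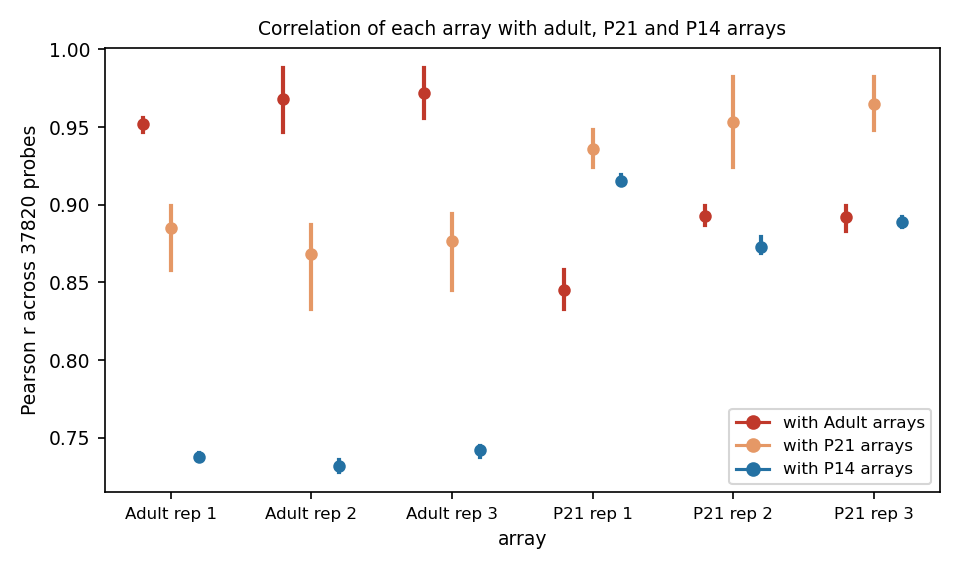
Pearson correlation across 37820 probes (vertical axis) of each adult and P21 array (horizontal axis) with the adult, P21 and P14 arrays other than itself. Points are means and bars run from the lowest to the highest correlation; P21 replicate 1 has a mean of 0.936 with P21 and 0.915 with P14 arrays.

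Many probes differed between adult and P21 testis. The falls were many and shallow while the rises were fewer and often steep. Of 37820 probes 11705 (30.9%) were called. Signal was higher in the adult for 3789 (10.0%) and lower for 7916 (20.9%). The median change was 2.06 among the rises, with an upper quartile of 3.18, and −1.48 among the falls, with a lower quartile of −1.81. Without P21 replicate 1 and adult replicate 1, 13633 probes (36.0%) were called, 4545 (12.0%) higher and 9088 (24.0%) lower, with medians of 2.09 and −1.48. Adult and P21 values were without overlap, in either direction, in 42.7% of all probes. All adult values lay above all P21 values in 87.5% of the called rises, against 13.8% of all probes. They lay below in 88.5% of the called falls, against 29.0% of all probes. The calls were made on these same values, so higher shares among them were built in. The median change of all probes was −0.33, against which the changes should be read. It was −0.13 after quantile normalization of the deposited values and −0.20 after array medians were set equal. The share of called probes that rose was 32.4% as deposited, and 42.9% and 40.3% under these rescalings. Rises outnumbered falls, 1745 to 1244, when limma's treat tested for more than a 2-fold change.

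**Figure D2:**
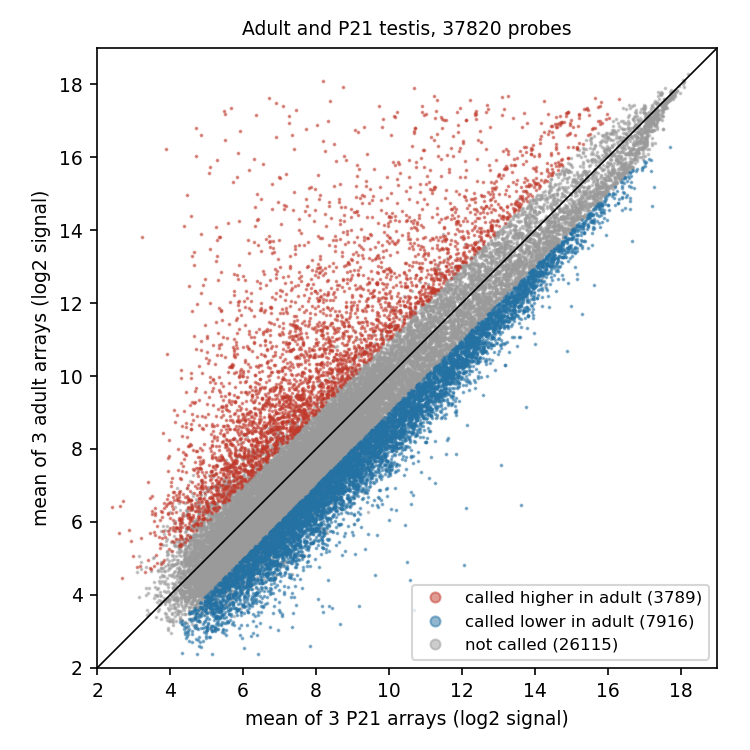
Mean log2 signal of 3 adult arrays (vertical axis) against the mean of 3 P21 arrays (horizontal axis) for 37820 probes, coloured by call. The 3789 probes called higher in the adult spread far above the line of equal signal, while most of the 7916 called lower form a narrow band just below it.

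Falls outnumbered rises among all calls of at least 2-fold, 7916 to 3789. From 4-fold up rises outnumbered falls, and more so at larger changes. At 4-fold or more, 1967 called rises stood against 1230 falls, at 8-fold 1041 against 110, at 32-fold 340 against 11 and at 64-fold 185 against 4. Beyond 256-fold there were 58 rises and beyond 1024-fold 19, whereas the largest fall was 152-fold. Without the pair of arrays the counts were 2427 and 1387 at 4-fold, 1163 and 156 at 8-fold, 308 and 20 at 32-fold, and 17 rises beyond 1024-fold. The number of falls of at least 8-fold was 197 without P21 replicate 2 and 56 after quantile normalization of the deposited values.

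**Figure D3:**
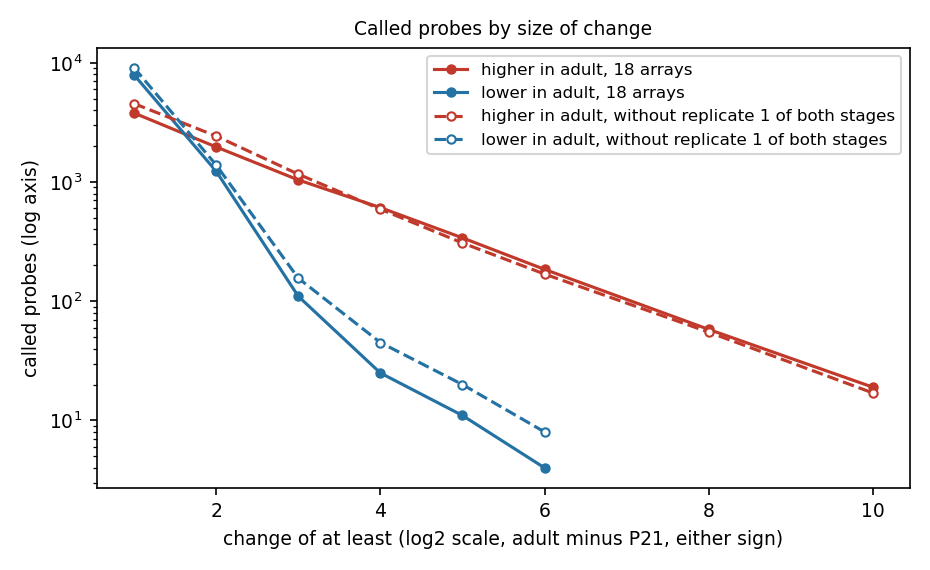
Number of called probes (vertical axis, log scale) whose change is at least the size on the horizontal axis (log2 scale), for probes higher and lower in the adult, over 18 arrays and without replicate 1 of both stages. At 8-fold, a change of 3, there are 1041 rises and 110 falls over 18 arrays, and 1163 and 156 without the pair.

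Removing the pair of arrays changed which probes passed. Of the 3789 called rises 3374 were also called without the pair, 89.0% of the first list and 74.2% of the second. Of the 7916 falls 6209 were shared, 78.4% of the first list and 68.3% of the second. The 415 rises and 1707 falls that were lost kept their sign, and 317 and 1407 of them then changed less than 2-fold. The 1171 rises and 2879 falls gained without the pair had median changes of 0.914 and −0.814 over all arrays, and 1.52 and −1.23 without it. Among these gained calls, 23 rises and 2 falls had the opposite sign over all arrays. P21 replicate 1 was the lowest of the 3 P21 arrays for 62.3% of the called rises and 55.7% of all probes. Among the falls it was the highest for 48.4% and the lowest for 44.5%.

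The rises came from all levels of P21 signal and ended mostly bright. The dimmest quartile of probes at P21, below 6.39, supplied 1107 of the 3789 rises (29.2%), and the brightest quartile, above 10.3, supplied 823. In the adult, 2014 (53.2%) of the risen probes lay in the brightest quartile, above 10.2, and 111 in the dimmest. Probes that were dimmest at P21 and brightest in the adult numbered 146, all of them also called without the pair, with a median change of 6.10. The opposite course, brightest at P21 and dimmest in the adult, was taken by 5 probes. Of the 7916 falls 2404 (30.4%) ended in the dimmest adult quartile, below 6.12. Background signal was not measured, so changes that start or end in this range may be understated.

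Falls were more frequent among probes that were bright on average over the series. Probes were divided by mean signal over 18 arrays into 5 equal bands of 7564. Signal fell for 9.27% of the dimmest band, 12.2%, 16.9% and 29.6% of the next bands and 36.7% of the brightest, while the share that rose lay between 7.06% and 11.8%. The median change was −0.20 in the dimmest band and −0.72 in the brightest. Falls of at least 8-fold numbered 6, 13, 34, 34 and 23 from the dimmest to the brightest band. The bands include the arrays before adulthood, and the stage used for ranking mattered. By P21 signal 37.6% of the falls lay in the brightest quartile and 13.1% in the dimmest. By adult signal 22.7% lay in the brightest and 30.4% in the dimmest. Without the pair of arrays 17.3% of the dimmest and 36.7% of the brightest band fell. After quantile normalization of the deposited values the shares that fell were 2.23% and 33.6%. The medians were 0.14 and −0.66, so the sign of the dimmest band turned with the scaling. After array medians were set equal the shares that fell were 6.36% and 31.3%. The lower end of the adult values was itself lower: the 1st percentile was 2.87, 3.34 and 3.63 in adult replicates 1 to 3, against 3.94, 3.96 and 4.02 in P21 replicates 1 to 3. The part of this spread in the calls of dim probes was not tested.

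**Figure D4:**
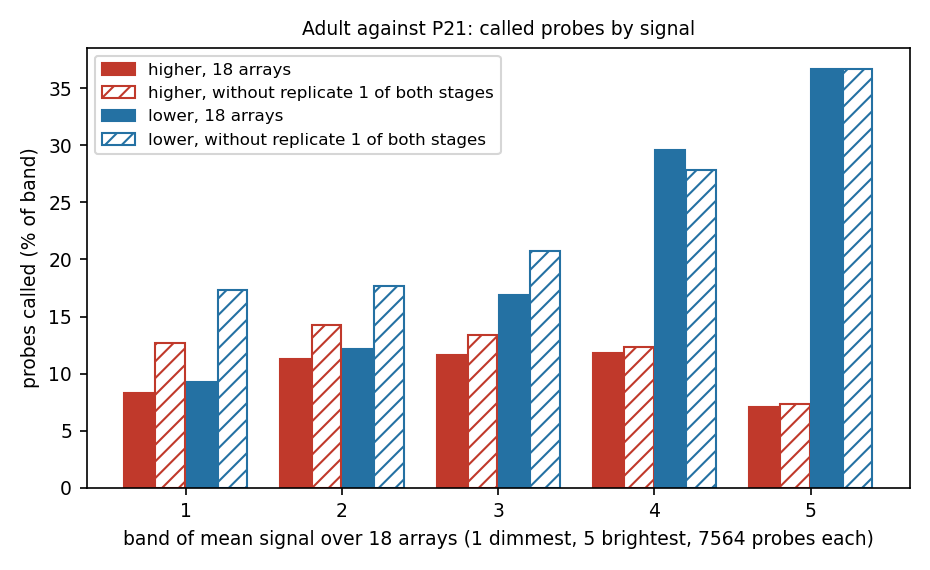
Percent of probes called higher or lower in the adult (vertical axis) in 5 equal bands of mean signal (horizontal axis), over 18 arrays (filled) and without replicate 1 of both stages (hatched). The share that fell is 9.27% in the dimmest and 36.7% in the brightest band over 18 arrays.

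The largest rises took probes near the bottom of the range at P21 to near its top in the adult. ASMM9PARTA026738 had 16.29, 16.15 and 16.25 in adult arrays, against 3.61, 4.09 and 3.96 in P21 arrays (log2 signal, replicates 1 to 3). All 3 adult values were far above all P21 values, and the change of 12.34 (SE 0.23, adjusted p = 3.84e-14, limma) corresponds to 5190-fold. With only the 6 adult and P21 arrays fitted, its adjusted p was 1.37e-05 (limma). ASMM9PARTA050554 had 16.89, 16.67 and 16.80 in adult arrays and 4.12, 4.63 and 5.35 in P21 arrays, a change of 12.09 (SE 0.38, 4362-fold). ASMM9PARTA009005 had 17.28, 17.26 and 17.22 in the adult, against 4.62, 5.99 and 5.81 at P21, a change of 11.78 (SE 0.35). ASMM9PARTA022673 averaged 16.60 ± 0.04 in adult and 4.84 ± 1.45 in P21 arrays (SD, n = 3 each). Its P21 replicate 1 was the highest of the stage, at 6.28 against 4.85 and 3.39, so its rise was 11.76 with all arrays and 12.50 without the pair. ASMM9PARTA044317 averaged 17.19 ± 0.05 in adult and 5.50 ± 0.30 in P21 arrays (SD, n = 3 each), a change of 11.69. These 5 probes varied by an SD of 0.03 to 0.11 among adult arrays and of 0.25 to 1.45 among P21 arrays, at levels where background was not measured.

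The brightest adult signals among the rises belonged to other probes. ASMM9PARTA031972 had 18.11, 18.06 and 18.06 in adult arrays, close to the highest value of the whole table (18.34), and 7.26, 9.09 and 8.25 in P21 arrays. Its change was 9.88 (SE 0.35, adjusted p = 1.20e-11, limma). ASMM9PARTA031867 had 17.89, 17.92 and 17.97 in the adult and 6.48, 10.34 and 9.39 at P21. P21 replicate 1 was low by itself here, and the rise was 9.19 with all arrays and 8.08 without the pair. ASMM9PARTA029001 averaged 17.89 ± 0.05 in adult and 10.69 ± 0.70 in P21 arrays, and ASMM9PARTA035348 averaged 17.68 ± 0.01 and 11.23 ± 0.91 (SD, n = 3 each). ASMM9PARTA037897 was already bright at P21, with 17.68, 17.70 and 17.68 in adult arrays and 12.48, 13.72 and 13.58 in P21 arrays, a change of 4.43 (SE 0.37). P21 replicate 1 was the lowest P21 array for 9 of these 10 largest and brightest rises.

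The largest falls did not share one earlier course, and 3 of the 5 were probes whose P21 arrays exceeded every other array of the series. ASMM9PARTA034445 had 6.69, 6.22 and 6.46 in adult arrays, against 13.81, 13.42 and 13.63 in P21 arrays, and its highest earlier value was 12.07. The change was −7.16 (SE 0.17, adjusted p = 3.92e-13, limma), and P21 replicate 1 lay with the other P21 arrays. ASMM9PARTA045397 had 2.95, 5.06 and 5.19 in the adult and 10.50, 10.73 and 10.48 at P21, with earlier values up to 8.63. Adult replicate 1 was low by itself, and the change was −6.17 with all arrays and −5.48 without the pair. ASMM9PARTA033852 had 5.82, 6.43 and 6.91 in adult arrays and 11.40, 12.57 and 12.37 in P21 arrays, a change of −5.73 (SE 0.32). The remaining falls had their highest means at earlier stages. ASMM9PARTA030022 had its highest mean at P14 (14.42 ± 0.05, SD, n = 3), and it had 4.11, 4.90 and 5.45 in adult arrays, against 11.26, 12.61 and 12.33 in P21 arrays. ASMM9PARTA000684 had its highest mean at E15.5 (12.78), and averaged 3.60 ± 0.99 in adult and 10.69 ± 0.66 in P21 arrays (SD, n = 3 each).

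**Figure D5:**
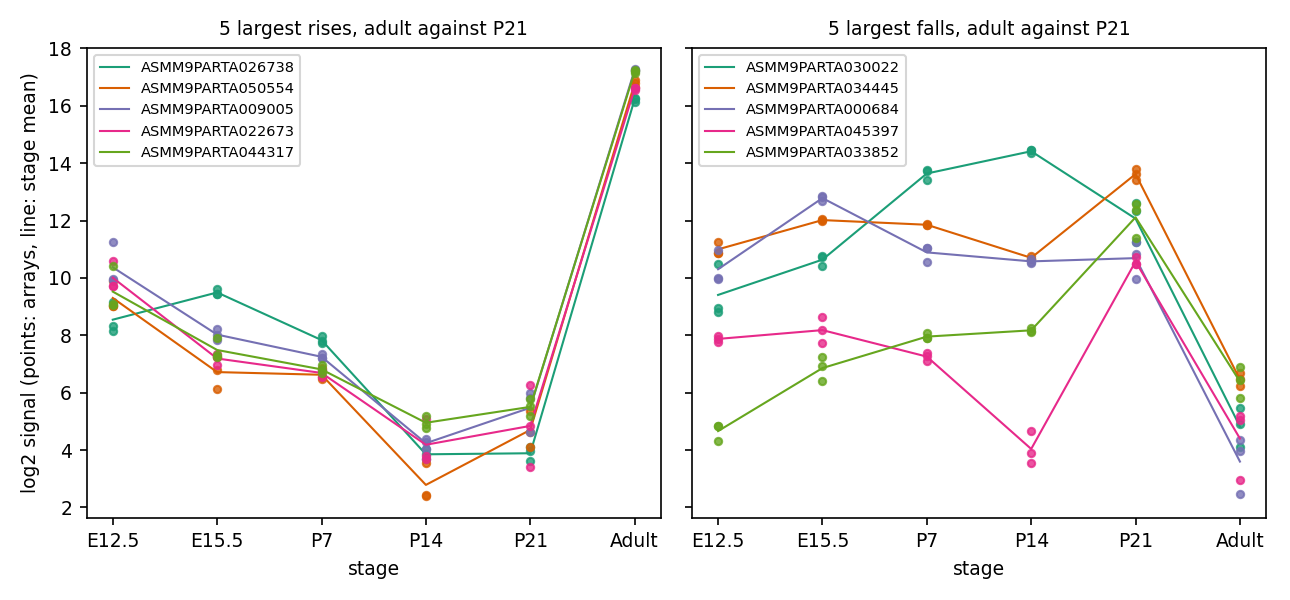
Log2 signal (vertical axis) of the 5 probes with the largest rises (left) and the 5 with the largest falls (right) at the 6 stages (horizontal axis); points are arrays and lines join stage means. The rising probes lie between 3.39 and 6.28 in P21 arrays and between 16.15 and 17.28 in adult arrays; the falling probes have no common course before P21.

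The 5 called falls with the brightest P21 signal changed by between −2.55 and −1.24. AV038163_P1, the brightest of these named by a sequence record, had 14.82, 14.51 and 14.66 in adult arrays and 17.27, 17.20 and 17.18 in P21 arrays. Its change was −2.55 (SE 0.14, adjusted p = 1.66e-09, limma), and its earlier stage means lay between 16.83 and 17.34. ASMM9PARTA028000 averaged 16.29 ± 0.06 in adult and 17.69 ± 0.03 in P21 arrays (SD, n = 3 each), a change of −1.41. ASMM9PARTA026905 averaged 15.17 ± 0.02 and 17.27 ± 0.05, a change of −2.10. ASMM9PARTA031038 fell by 1.56 to 15.62 ± 0.11 in the adult, and ASMM9PARTA028728 fell by 1.24 to 15.93 ± 0.10. By the rule that picked them, these 5 probes had all adult values below all P21 values. All 5 were also called as falls without the pair of arrays. Their P21 signal, like the adult signal of the brightest rises, lay near the highest deposited value (18.34). The upper limit of measurable signal was not examined, so the size of these changes and the small SDs carry that limit.

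For most called probes the adult lay outside the whole earlier range, not only beyond P21. All 3 adult arrays exceeded all the other 15 arrays for 2596 of the 3789 rises (68.5%), against 10.3% of all probes. They did so by at least 2-fold for 1598 (42.2%), against 4.23% of all probes. All 3 adult arrays lay below the other 15 for 5587 of the 7916 falls (70.6%), against 20.2% of all probes. They lay below by at least 2-fold for 1449 (18.3%), against 3.83% of all probes. For fewer calls P21 was the extreme stage. All 3 P21 arrays were above the other 15 for 243 of the falls (3.07%), against 1.76% of all probes. They were below the other 15 for 266 of the rises (7.02%), against 0.999% of all probes. The most marked of the 243 beyond those above were ASMM9PARTA044959, at 4.91 in adult and 10.48 in P21 arrays on average, and ASMM9PARTA051397, at 7.55 and 13.08, both picked after their values were seen. These counts come from the arrays that gave the calls and carry no test. Of the 1599 probes with all adult arrays at least 2-fold above the rest, 1598 were called rises. All 1449 probes at least 2-fold below the rest were called falls. The 2-fold contrasts with all probes were therefore largely fixed by the calling rule, and the others partly.

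The steep rises were lowest at P14 and were often higher in fetal testis. Among the 1041 probes that rose at least 8-fold, the median signal was 7.17 in E12.5 testis and 7.01 in E15.5 testis, stood at 6.85 for P7 and 6.08 for P14, and reached 7.39 by P21 and 12.2 in adults. All 3 E12.5 arrays were at least 2-fold above all 3 P14 arrays for 287 of them (27.6%), for 15.8% of all called rises and for 7.52% of all probes. This held for 57 of the 146 probes that went from the dimmest quartile at P21 to the brightest in the adult (39.0%), and for all 10 of the largest and brightest rises named above. ASMM9PARTA031972 averaged 14.49 in E12.5 testis, 11.43 in both E15.5 and P7 testis, 6.09 in P14 testis, 8.20 in P21 testis and 18.08 in adults. For ASMM9PARTA009005 they were 10.37, 8.02, 7.25, 4.23, 5.47 and 17.25 in the same 6 stages. E12.5 replicate 2 was the highest of the 3 E12.5 arrays for all 10 probes, for example at 11.24 against 9.95 and 9.92 for ASMM9PARTA009005, and the other E12.5 arrays also exceeded P14. All called falls together, a set not limited to 8-fold, had medians between 10.2 and 10.4 from E12.5 to P14, then 9.24 at P21 and 7.61 in adults. Falls of at least 8-fold had medians of 9.41, 9.91, 10.2 and 10 from E12.5 to P14, then 9.05 and 5.32. All called rises together had 7.37, 7.5, 7.32 and 7.01, then 7.64 and 10.5.

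Probes whose identifiers name lincRNAs, long noncoding transcripts that lie between genes, had a call share that depended on the pair of arrays. Of 2480 such probes 461 (18.6%) were called, 151 higher and 310 lower, against 30.9% of all probes. Without the pair 795 (32.1%) were called, 246 higher and 549 lower, against 36.0% of all probes. Their median change was −0.102 with all arrays and −0.315 without the pair, beside −0.327 and −0.375 for all probes. P21 replicate 1 was the lowest of the 6 arrays: the median of lincRNA probes was 6.94, 7.02 and 7.01 in adult arrays, and 6.68, 7.26 and 7.13 in P21 arrays. Their median difference between P21 replicate 1 and its stage mates was −0.71, against −0.25 for ASMM9PARTA probes, −0.65 for sequence accessions and −0.58 for CUST probes. Leaving out adult replicate 1 alone brought the lincRNA share to 28.9%, and leaving out P21 replicate 1 alone to 21.3%. Fitting only the 6 arrays gave 8.91%.

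The balance of rises and falls was counted for each kind of lincRNA probe. Among 1840 MM9LINCRNAEXON probes 98 were higher and 290 lower, a call share of 21.1%, against 30.9% of all probes. Of 246 mouselincRNA probes 23 were higher and 8 lower, and of 394 humanlincRNA probes 30 were higher and 12 lower. Their call shares were only 12.6% and 10.7%. Over all probes 10.0% were called higher and 20.9% lower. Without the pair the counts became 171 and 471, 30 and 29, and 45 and 49. The call shares were then 34.9%, 24.0% and 23.9%, against 36.0% of all probes. Rises then about equalled falls among mouselincRNA probes, and falls outnumbered rises among humanlincRNA probes. The largest lincRNA rise was that of MM9LINCRNAEXON10112+_P1, with 12.35, 11.57 and 12.17 in adult arrays and 5.65, 6.07 and 5.88 in P21 arrays (change 6.16, SE 0.36, adjusted p = 2.46e-09, limma). MM9LINCRNAEXON12023-_P1 had 14.10, 13.55 and 13.86 in the adult and 7.51, 9.33 and 8.68 at P21, a change of 5.33 with all arrays and 4.70 without the pair. In both, the stages were far apart in every array. MM9LINCRNAEXON12015-_P1 had the largest fall, with 2.95, 4.21 and 4.48 in adult arrays, against 5.42, 9.55 and 9.15 in P21 arrays. P21 replicate 1 lay close to the adult values, and the change was −4.16 with all arrays and −5.00 without the pair. MM9LINCRNAEXON10860-_P1 had 2.38, 2.38 and 2.40 in adult arrays, at the lowest value of the table (2.378), and 5.86, 6.83 and 6.55 in P21 arrays.

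The lincRNA set held 625 numbers with a probe on each strand. At a call share of 18.6% over lincRNA probes, neither strand was called in 425 pairs. One strand rose and the other was not called in 53 pairs, and one fell and the other was not called in 118. Both strands were called in 29 pairs, with 2 higher on both, 21 lower on both and 6 in opposite directions. Without P21 replicate 1 and adult replicate 1 both strands were called in 75 pairs, with 9, 44 and 22 in the same classes, a single strand was higher in 73 and lower in 165, and 312 had no call, at a call share of 32.1%. In the pair numbered MM9LINCRNAEXON10062, chosen after its values were seen, the plus strand probe had 9.93, 9.94 and 9.95 in adult arrays and 11.35, 11.13 and 11.28 in P21 arrays. Its minus strand probe had 4.27, 7.98 and 7.48 in adult arrays and 4.80, 5.05 and 4.66 in P21 arrays. The fall of the plus strand was clear of the replicate spread (adjusted p = 7.29e-06, limma). On the minus strand adult replicate 1, at 4.27, lay below every P21 array, so the rise rested on adult replicates 2 and 3. Its adjusted p was 0.0396 with all arrays and 5.48e-06 without the pair (limma). In MM9LINCRNAEXON10651 both strands rose, to 13.11, 12.83 and 12.64 on the minus strand in adult arrays, against 9.58, 11.01 and 10.68 in P21 arrays.

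Rises made up a larger share of the calls among CUST probes than over all probes. Of 527 such probes 172 (32.6%) were called, against 30.9% of all probes. Of these calls 90 were higher and 82 lower, so that 52.3% of the called probes rose, against 32.4% over all probes. Without the pair 39.5% were called, against 36.0% of all probes, with 101 higher and 107 lower. Falls then outnumbered rises, and 48.6% of the calls were rises, against 33.3% over all probes. Their names fall into a pair of designs. Of 245 probes ending in PI426409190, 72 were higher and 41 lower, a call share of 46.1%, against 30.9% of all probes. All 3 adult arrays exceeded all other arrays for 32.2% of these 245 probes, against 10.3% of all probes. Of 282 probes ending in PI426073487, 18 were higher and 41 lower, a call share of 20.9%. Without the pair the counts were 76 higher and 55 lower in PI426409190, and 25 higher and 52 lower in PI426073487. The call shares were then 53.5% and 27.3%, against 36.0% of all probes. The first design was brighter, with a median of 11 in adult and 10.6 in P21 arrays. Within the upper 2 of the 5 bands of signal 30.2% of its 139 probes rose, against 9.41% of all probes in these bands, and in the lower 3 bands 28.3% of 106 rose, against 10.4%. Without the pair of arrays these shares were 30.2% and 32.1%, against 9.83% and 13.5%. These shares are descriptions, and what the designs target is not given in the sources used here.

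CUST_266_PI426409190 had the largest rise of the family. It had 14.02, 14.11 and 14.12 in adult arrays and 4.77, 5.48 and 5.55 in P21 arrays, a change of 8.82 (SE 0.52, adjusted p = 2.86e-09, limma) or 451-fold. CUST_48_PI426409190 averaged 14.86 ± 0.11 in adult and 8.64 ± 0.53 in P21 arrays (SD, n = 3 each). CUST_196_PI426409190 fell, with 3.37, 5.22 and 5.08 in the adult and 6.49, 11.25 and 11.09 at P21. P21 replicate 1 lay between the adult arrays and its stage mates, and the change was −5.05 (SE 1.05) with all arrays and −6.02 without the pair. CUST_734_PI426073487 averaged 5.76 ± 1.02 in adult and 8.38 ± 0.33 in P21 arrays, with an adjusted p of 0.0043 with all arrays and 0.0351 without the pair.

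Among 581 probes named by a sequence record, 51 were higher and 89 lower, so that 24.1% were called, against 30.9% of all probes. Without the pair 61 were higher and 125 lower, 32.0% against 36.0% of all probes. AK132675_P1 was among the brightest, with 17.23, 17.25 and 17.25 in adult arrays and 11.79, 13.21 and 12.98 in P21 arrays, a change of 4.58 (SE 0.33, adjusted p = 3.25e-08, limma). BU843812_P1 averaged 11.80 ± 0.12 in adult and 6.47 ± 0.85 in P21 arrays (SD, n = 3 each), a change of 5.33. BB791535_P1 fell, with 3.55, 4.87 and 5.20 in the adult and 7.75, 7.67 and 7.03 at P21. Its change was −2.94 with all arrays and −2.31 without the pair.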

How the data were processed

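Whole testis RNA was depleted of ribosomal RNA, labelled with Cy3 by random priming and hybridised to 1-colour arrays, per the labels' protocols, and scanned images were quantified by Agilent Feature Extraction 11.0.1.1, as the submitters' processing notes record. The deposited table held values for 37820 probes on 18 arrays, with none missing. The deposited values were read as log2 signal because they run between 2.378 and 18.34. Their log base, normalization and any probe filter are not stated in the sources used here, and detection flags were not used.

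With limma 3.58.1 (R 4.3.3; lmFit, eBayes), a model of 6 stage means was fitted to the 18 arrays, and adult minus P21 was tested across all probes. The fit was tested on simulated data. Plots used matplotlib 3.10.9.

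The comparison, alternatives and rule for named probes were chosen with earlier results of these data known. Named probes were the 5 largest rises and falls called with and without P21 replicate 1 and adult replicate 1, the 5 brightest called rises and falls, and the 2 largest of each direction among lincRNA, sequence accession and CUST identifiers, with values of the stages not overlapping. Lists of spermatid, meiotic, spermatogonial and somatic marker genes had been drawn up but could not be used, since no probe had a gene name. Alternatives were a replicate block, a fit of 6 arrays, a trended robust prior, array weights, rescaling, removal of dim probes, other thresholds, and leaving out arrays.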

Additional observations from a re-analysis of the deposited data

How the results depend on the processing

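The counts of called probes and of steep changes were recomputed under up to 18 alternatives, and the changes of 31 named probes under 15. All 465 recomputed changes of named probes kept their direction and their call. However, these probes were chosen for large changes or bright signal, among called probes without overlap. Some were also required to be called without the pair, so the agreement was partly fixed by that choice. Of 84 recomputed counts, 77 stayed within 1.5 times the reported one. With only the 6 arrays of both stages fitted, 7588 probes were called, 4777 of them lower, and the treat test called 2989, with 1745 higher and 1244 lower. Quantile normalization of the deposited values left 56 falls of at least 8-fold. Leaving out 1 of the 6 arrays at a time gave 9869 to 13832 calls, 3175 to 4828 higher and 6694 to 9004 lower, with 1003 to 1265 rises and 117 to 197 falls of at least 8-fold. Adding the replicate number as a block gave 12060 calls (3928 higher, 8132 lower) and changed no call of a named probe. The numbers were not taken to pair samples: deviations of same-numbered arrays correlated at 0.0893, 0.117 and 0.0732, each the best for its adult array, a hint from the data and not the design. Array weights, which were lowest for E12.5 replicate 2, P21 replicate 1 and adult replicate 1, gave 14656 calls and 32.3% of lincRNA probes. Leaving out these 3 arrays, an alternative added after seeing the data, gave 14406 calls and 33.3% of lincRNA probes. With 6 arrays fitted, 20.9% of ASMM9PARTA probes and 14.3% of sequence accessions were called. The cause of these differences was not tested. By construction, some settings use fewer arrays, a spread from fewer stages or a stricter test. Background was not measured, which limits changes that start or end at dim signal.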
